A study of Mus musculus with 18 samples.

Results

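Potassium and calcium channel genes of bladder muscle were followed through single cells, single nuclei, tissue sections and bulk RNA of the mouse bladder. The 9 members are given by name: Kcnf1, Kcnma1, Kcnmb1, Kcnj8, Abcc9, Cacna1c, Cacna1d, Cacnb2 and Ryr2. They are 9 of the 29214 genes counted in bulk RNA, and the list sets no threshold on a measured value, although it was drawn up with earlier results of these data known.

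All bladders came from C57BL/6 mice, and the labels give no treatment or altered gene. The 18 samples form 11 groups, and each library is labelled with several animals. Cells of whole bladder came from 3 males aged 22 months and from 3 males aged 3 months, 1 library each. Whole-bladder cells of mixed sex (2 females, 2 males) were taken at 12 months in 2 libraries and at 24 months in 1. Nuclei were prepared at 12 months from a pool of the same mix. A detrusor-only cell library, made from the muscular wall, used 3 females aged 14 months. A detrusor-enriched cell library, labelled as whole bladder enriched for detrusor, used a pool of mixed sex (2 females, 2 males) at that age. Frozen sections on a grid of barcoded spots (Visium) came from males of 22 months (2 sections) and of 14 months (2 sections), each group labelled with 4 males. Bulk RNA came from females of 12 months, as intact tissue (3 libraries) and as dissociated cells (3 libraries), with 3 animals in each label. No label says that libraries of a group came from separate animals, so p-values measure the spread between these samples, which may be technical.

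The detrusor contracts when calcium enters through L-type channels, whose pore is encoded by Cacna1c in smooth muscle, with Cacnb2 as a regulatory beta subunit and Cacna1d as a related pore. Ryanodine receptors such as Ryr2 release calcium from the sarcoplasmic reticulum, and the local signal opens large-conductance BK potassium channels, made of the Kcnma1 pore and the Kcnmb1 beta subunit, which restrain contraction. Kcnj8 (pore) and Abcc9 (sulfonylurea receptor) form ATP-sensitive potassium channels, long studied in vascular mural cells (pericytes and the muscle cells of vessels), and Kcnf1 is an electrically silent subunit that modifies other voltage-gated potassium channels.

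Kcnf1 and Kcnmb1 had the largest falls among the members on dissociation, and Kcnj8 and Abcc9 lay higher in mural-like cells than in muscle. The 250 bases before a RefSeq transcript start of each are sequences of build GRCm38.p6, written 5′ to 3′ along the gene, with a GC box (GGGCGG on either strand) in capitals.
Kcnf1 (chr12:17176889-17177138, minus strand): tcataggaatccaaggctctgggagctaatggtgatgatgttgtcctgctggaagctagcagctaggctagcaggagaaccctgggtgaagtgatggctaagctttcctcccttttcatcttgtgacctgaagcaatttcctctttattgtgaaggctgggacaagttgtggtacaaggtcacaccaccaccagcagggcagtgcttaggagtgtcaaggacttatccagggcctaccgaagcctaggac
Kcnmb1 (chr11:33962763-33963012, plus strand): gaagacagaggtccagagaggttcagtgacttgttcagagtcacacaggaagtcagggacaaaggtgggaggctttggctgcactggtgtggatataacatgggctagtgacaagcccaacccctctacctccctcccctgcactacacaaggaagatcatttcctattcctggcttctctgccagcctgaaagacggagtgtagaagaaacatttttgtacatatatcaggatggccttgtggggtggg
Kcnj8 (chr6:142571615-142571864, minus strand): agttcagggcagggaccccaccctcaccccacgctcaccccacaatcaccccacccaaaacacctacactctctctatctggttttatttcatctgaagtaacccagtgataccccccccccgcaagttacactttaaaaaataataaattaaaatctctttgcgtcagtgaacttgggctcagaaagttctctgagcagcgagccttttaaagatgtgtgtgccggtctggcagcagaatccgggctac
Abcc9 (chr6:142702275-142702524, minus strand): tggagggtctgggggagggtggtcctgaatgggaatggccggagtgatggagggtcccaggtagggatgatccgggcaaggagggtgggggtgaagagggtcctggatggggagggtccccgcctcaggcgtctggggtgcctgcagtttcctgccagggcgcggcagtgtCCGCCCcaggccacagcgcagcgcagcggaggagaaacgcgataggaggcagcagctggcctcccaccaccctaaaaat
Of these 4 windows, that of Abcc9 holds a GC box, 79 bases before that window's start. The starts of the Kcnf1 and Kcnj8 windows are the 5′ ends of the gene spans given next, whereas those of Kcnmb1 and Abcc9 lie 58 and 492 bases inside the spans, so the Abcc9 box is within the annotated gene. All 9 members had at least 1 promoter window in the reference, 13 windows in all, each of 300 bases (250 before the start and 50 after it). A GC box lay in 6 of the 13 (46.2%) and in 35.7% of 32851 windows of all genes. A TATA box (TATAAA on either strand) lay in 1 of the 13 (7.69%), a Cacna1d window, and in 13.6% of all windows. No member window held a CArG box, the sequence that serum response factor binds in muscle genes, and 1.63% of all windows did. The GC content was 53.0% in the Kcnf1 window, 49.7% in the Kcnmb1 window, 53.3% in the Kcnj8 window, 65.7% in the Abcc9 window and 78.0% in the Kcnma1 window.

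In the same annotation Kcnj8 (chromosome 6, 142564837 to 142571614) and Abcc9 (chromosome 6, 142587862 to 142702766) are neighbours, 16247 bases apart. Kcnf1 lies at 17172100 to 17176888 of chromosome 12 and Kcnma1 at 23292288 to 24005110 of chromosome 14. Kcnmb1 (chromosome 11, 33962955 to 33973641) lies within the span of Kcnip1. Cacna1c (chromosome 6, 118587240 to 119197384) overlaps Dcp1b at its 5′ start, and Cacna1d (chromosome 14, 30039941 to 30491156) overlaps Chdh and Dcp1a. Cacnb2 lies at 14603861 to 14988811 of chromosome 2 and Ryr2 at 11553099 to 12106945 of chromosome 13. Whether reads were counted by strand is not given in the sources used here, so counts of these 3 genes near their neighbours carry that uncertainty. Non-coding RNA genes or pseudogenes also overlap Kcnma1, Abcc9, Cacna1c, Cacna1d and Cacnb2, which adds the same uncertainty for Kcnma1, Abcc9 and Cacnb2.

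Depth and libraries that stand apart bear on the values below. Bulk libraries held 23083752 to 68760791 reads. The sections held 939 to 1321 spots and 21975462 to 32020077 UMIs (unique molecular identifiers) over spots kept. After filtering, 948 to 8420 cells remained in the whole-bladder libraries, 3375 nuclei, 5379 detrusor-only cells and 5158 detrusor-enriched cells. Libraries shared few barcodes: 64 between the 22-month and 3-month males, 15 between the detrusor libraries, and at most 12 in any other pair of droplet libraries. Clusters were built without the members and named from markers, and the suffix -like marks a class known by its markers alone. A cluster of 62 cells in the 12-month whole-bladder library 2 received the smooth-muscle name but held 131 CPM (counts scaled to the library total) of the smooth muscle markers, against 162 CPM in the fibroblast-like cells of that library and 7117 CPM of urothelial markers in the cluster itself. Its markers go against its name, so tests that include it are given with and without it. Clusters led by Rergl, 1 in each detrusor library, were named mural-like here and are also given apart. Under other settings the split between mural-like and smooth-muscle-like cells moved. Smooth-muscle-like detrusor-only cells numbered 274 with Leiden resolution 2, 305 with doublets kept and 270 with at least 1000 UMIs. In the detrusor-enriched library they numbered 188, 54 and 40 in the same order. In nuclei, muscle markers reached 3236 to 9236 CPM in classes other than muscle, against 30910 CPM in smooth-muscle-like nuclei. Their source was not tested, and low member values in those nuclei have to be read beside them.

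The bulk libraries set dissociated bladder beside intact bladder of mice of the same age and sex. Of the 9 channel genes, 8 fell on dissociation and Cacna1d rose, by edgeR's quasi-likelihood test with Benjamini-Hochberg adjustment over all genes. Called genes made up 59.2% of the 16538 tested (31.3% lower and 27.9% higher), so a call by itself is common here. The median log2 fold change of the members was -2.14, against -0.029 over all genes tested. Smooth muscle markers fell with them: all 10 fell, with a median of -3.94 and a range from -4.36 (Actg2) to -2.46 (Pgm5), and their sum was 30680 to 32050 CPM in intact and 1451 to 2414 CPM in dissociated libraries. In bulk RNA, fewer muscle cells and less RNA per muscle cell cannot be told apart. Dissociation-response genes (immediate early and heat shock genes) rose, 20 of 20, with a summed level of 771 to 1012 CPM in intact and 20020 to 24380 CPM in dissociated libraries. Fibroblast markers rose, 11 of 11 (median 1.24), with a sum of 14050 to 17170 CPM in intact and 25660 to 37790 CPM in dissociated libraries. Of 9 urothelial markers 5 fell, 1 rose and 3 were not called (median -0.95), with a sum of 5800 to 6694 CPM in intact and 3211 to 4843 CPM in dissociated libraries. The part of these lists in the results was not tested.

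Kcnf1 showed the widest gap among the members. It stood at 137, 147 and 207 CPM in the 3 intact libraries and at 3.45, 4.03 and 2.77 CPM in the 3 dissociated libraries. Every dissociated library lay far below every intact library. The means were 163 ± 37.9 and 3.42 ± 0.632 CPM (SD, n = 3 each), and the log2 fold change was -5.46 (SE 0.21, edgeR adjusted p = 2.1e-06), a larger fall than that of any of the 10 smooth muscle markers.

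The BK channel genes fell next. Kcnma1 was 54.2, 54.2 and 51.9 CPM in intact and 6.58, 8.03 and 5.83 CPM in dissociated libraries, a log2 fold change of -2.86 (SE 0.12, edgeR adjusted p = 2.1e-06). Its beta subunit Kcnmb1 was 104, 106 and 97.6 CPM in intact and 9.39, 8.77 and 7.69 CPM in dissociated libraries, a log2 fold change of -3.46 (SE 0.094, edgeR adjusted p = 6.5e-07). Libraries within each group were close together for both genes, and the groups did not overlap.

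The ATP-sensitive channel genes fell least. Kcnj8 was 22.8, 25.4 and 23.6 CPM in intact and 8.72, 9.51 and 8.52 CPM in dissociated libraries, a 2.49-fold fall (log2 -1.32, SE 0.094, edgeR adjusted p = 2.5e-05). Abcc9 was 151, 179 and 154 CPM in intact and 110, 102 and 77.7 CPM in dissociated libraries, a 1.55-fold fall (log2 -0.63, SE 0.13, edgeR adjusted p = 0.0042). The groups did not overlap for either gene. Mural markers had a median log2 fold change of 0.028, with 4 of 12 higher, 3 lower and 5 not called. Their sum was lower, 1107 to 1159 CPM in intact and 619 to 700 CPM in dissociated libraries. The part of mural RNA in the falls of Kcnj8 and Abcc9 was not tested.

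The calcium entry genes moved in different directions. Cacna1c was 165, 214 and 181 CPM in intact and 39.5, 36.1 and 31.5 CPM in dissociated libraries, a 4.85-fold fall (log2 -2.28, SE 0.12, edgeR adjusted p = 6.5e-06). Cacnb2 was 55.2, 56.4 and 49.5 CPM in intact and 16.0, 9.55 and 10.7 CPM in dissociated libraries, a 4.11-fold fall (log2 -2.04, SE 0.19, edgeR adjusted p = 0.0001). Cacna1d, the other L-type pore gene, was the member that rose. It was 8.45, 11.5 and 10.4 CPM in intact and 13.5, 14.8 and 12.2 CPM in dissociated libraries, a 1.44-fold rise (log2 0.52, SE 0.14, edgeR adjusted p = 0.012), with the lowest dissociated library just above the highest intact library. Ryr2, the calcium release channel, was 12.0, 15.4 and 12.4 CPM in intact and 3.02, 3.22 and 2.11 CPM in dissociated libraries, a 4.41-fold fall (log2 -2.14, SE 0.19, edgeR adjusted p = 6.8e-05).

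The groups did not overlap for any of the 9 members, as for 67.9% of all genes tested. Every dissociated library lay below every intact library for 8 members, as for 42.3% of all genes tested. None of these calls changed under another scaling, DESeq2, no filter on low counts, or with any of the 6 libraries left out.

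**Figure D1:**
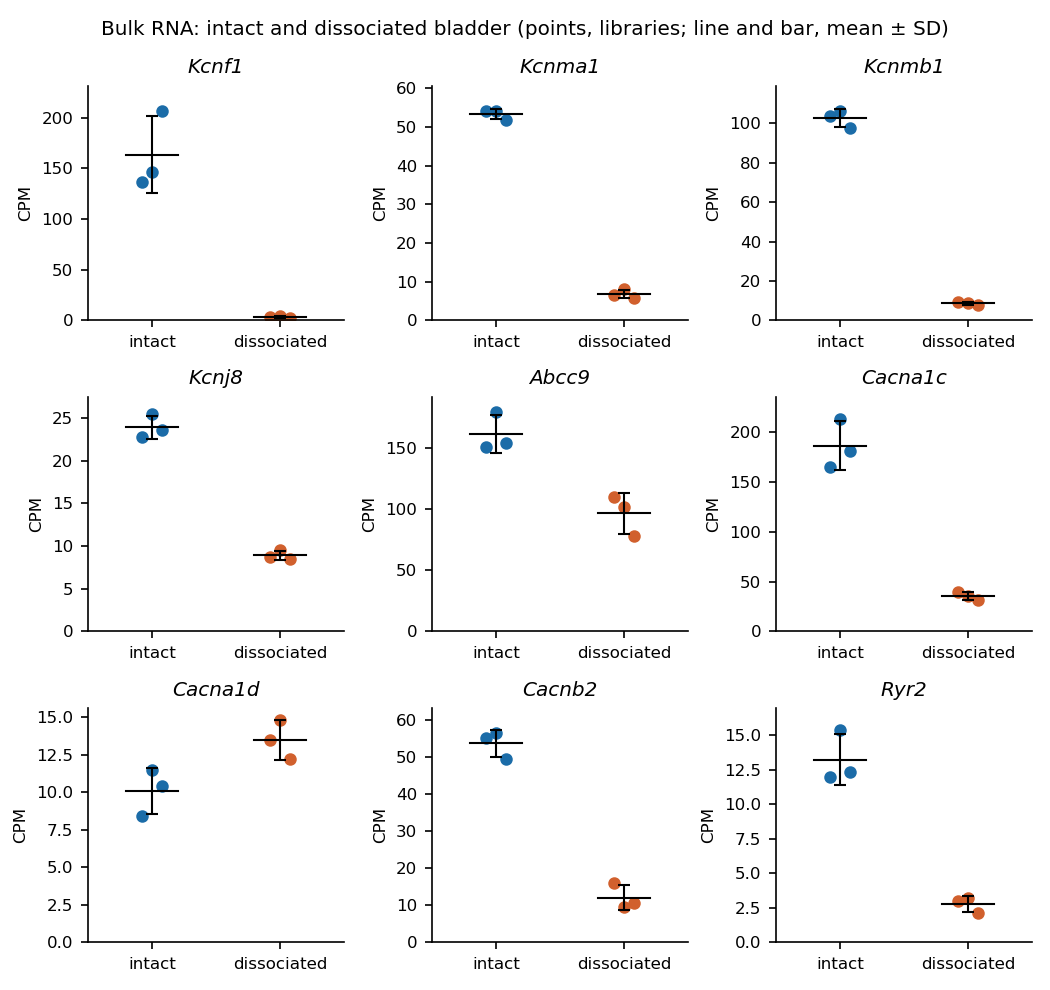
Level of each channel gene in bulk RNA (CPM, vertical axis from 0 in each panel) in 3 intact and 3 dissociated libraries; points are libraries, lines and bars are mean ± SD. Kcnf1 drops from 163 to 3.42 CPM, Abcc9 keeps more than any other falling member, and Cacna1d is the panel in which dissociated libraries lie higher.

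Related genes did not all follow the muscle channels. Of 35 other potassium channel genes 32 were tested in bulk RNA, of which 13 rose, 12 fell and 7 were not called, with a median log2 fold change of -0.056. The largest falls were of Kcng1 (another silent voltage-gated subunit, log2 -3.74), the leak channel Kcnk3 (-3.28) and the small-conductance calcium-activated channel Kcnn2 (-3.14). Kcng1 was 45.7, 40.4 and 32.1 CPM in intact and 3.45, 3.00 and 1.70 CPM in dissociated libraries. The largest rises were of Kcnv2 (log2 2.78, under 2 CPM in each library), the inward rectifier Kcnj2 (2.08) and Kcnk5 (1.83). Kcnv2 was 0.13, 0.058 and 0.577 CPM in intact libraries, where the filter on low counts asked for 0.377 CPM. It passed that filter through dissociated libraries, so its call is no support beyond the levels. Its log2 fold change was 2.06 without intact library 2 and 4.18 without intact library 3.

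Of 14 other voltage-gated calcium channel genes 12 were tested, of which 2 rose, 6 fell and 4 were not called (median -0.27). The T-type pore Cacna1h fell from 184, 182 and 168 CPM to 28.7, 29.3 and 16.0 CPM (log2 -2.74), Cacna2d3 fell by 3.54 on the log2 scale and the N-type pore Cacna1b fell by 3.06. Cacna1b was 4.9, 4.0 and 5.3 CPM in intact and 0.498, 0.333 and 0.744 CPM in dissociated libraries, where the filter asked for 0.377 CPM. It passed that filter through intact libraries, so its call is no support beyond the levels. The T-type pore Cacna1g (log2 1.89) and the auxiliary subunit Cacna2d2 (0.72, adjusted p = 0.044) rose. Cacna2d2 lost its call under 7 of 11 alternatives: library size alone (adjusted p = 0.079), no filter on low counts (0.0504), and leaving out any 1 of dissociated libraries 1, 2 and 3 or intact libraries 1 and 2 (0.064 to 0.14). Of 22 calcium store genes 21 were tested, of which 5 rose, 10 fell and 6 were not called (median -0.18). The falls were led by the store calcium buffer Casq2 (log2 -3.86), by Jph2, which tethers the store to the cell membrane (-3.26), and by the junction protein Trdn (-3.16). The rises were led by the inositol trisphosphate receptor Itpr2 (1.18), Stim2 (0.91) and Fkbp1b (0.64). Fkbp1b lost its call without dissociated library 1 or without any 1 of the 3 intact libraries (adjusted p from 0.0598 to 0.0722).

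Sections kept the tissue whole, so levels could be followed over spots with more or less muscle RNA. In each section the 25% of spots with the highest share of UMIs from 10 smooth muscle markers (muscle-high spots) were compared with the 25% with the lowest share (muscle-low spots), with the section as a block. None of the 9 channel genes is in that marker list. Each of these sets held 234 to 329 spots. In muscle-high spots 8 channel genes were higher and Cacna1d was lower, where 33.2% of the 13920 genes tested were called higher and 37.5% lower (70.7% in either direction). Of the 8, Ryr2 entered the test through muscle-high spots alone, which limits its call as given below. The members' median log2 difference was 3.26, against -0.080 over all genes.

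Kcnf1 rose from 3.65, 3.64, 8.55 and 4.30 CPM in the muscle-low spots of the 22-month sections 1 and 2 and the 14-month sections 1 and 2 to 175, 186, 189 and 73.3 CPM in their muscle-high spots (log2 5.11, SE 0.30, edgeR adjusted p = 1.2e-05). The rise held in every section and was smallest in the 14-month section 2. Kcnmb1 rose, in the same order, from 3.15, 3.06, 7.35 and 5.60 CPM to 82.9, 102, 106 and 135 CPM (log2 4.66, SE 0.17). Kcnma1 rose from 2.49, 2.11, 3.59 and 2.76 CPM to 12.8, 11.3, 16.7 and 14.7 CPM (log2 2.50, SE 0.18). The BK pore and its beta subunit were thus both higher in muscle-high spots of all 4 sections.

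Kcnj8 rose from 12.0, 9.57, 10.9 and 7.39 CPM to 65.8, 66.6, 54.6 and 55.5 CPM (log2 2.77, SE 0.12). Abcc9 rose from 10.5, 9.76, 13.7 and 9.75 CPM to 64.7, 54.2, 77.5 and 108 CPM (log2 2.93, SE 0.15). Mural markers were also higher in these spots, 9 of 12 with 2 lower, with sums of 599 to 735 CPM in muscle-high and 375 to 559 CPM in muscle-low spots, and their part in the rise of the ATP-sensitive channel genes was not tested.

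Cacna1c rose from 6.52, 4.88, 8.12 and 5.12 CPM to 87.5, 81.5, 71.6 and 86.2 CPM (log2 3.90, SE 0.15), with muscle-high levels close together over the sections. Cacnb2 rose from 1.88, 1.82, 3.16 and 2.19 CPM to 19.6, 16.3, 16.4 and 24.5 CPM (log2 3.26, SE 0.21). Ryr2 was 0.111, 0, 0.855 and 0.975 CPM in muscle-low and 7.29, 2.76, 13.1 and 11.4 CPM in muscle-high spots (log2 4.43, SE 0.41). Ryr2 passed the filter on low counts through muscle-high spots alone, so its call is no support beyond the levels. In the 22-month section 1 the muscle-low value rests on 2 UMIs, and the ratio was 66.0 (95% counting interval 16.8 to 568). In the 22-month section 2 no Ryr2 UMI was seen among 10452420 in muscle-low spots, so the level in muscle-high spots was at least 9.63-fold higher (against a floor of 3 counts in that set of spots).

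Cacna1d went the other way. It was 5.58, 6.31, 3.51 and 3.74 CPM in muscle-low and 2.05, 0.553, 0.298 and 1.53 CPM in muscle-high spots (log2 -1.90, SE 0.39, edgeR adjusted p = 0.0007). The muscle-high values rest on 9, 2, 1 and 5 UMIs, and the ratio of muscle-low to muscle-high spots was 11.4 (95% counting interval 3.04 to 96.3) in the 22-month section 2 and 11.8 (1.99 to 475) in the 14-month section 1. Intervals cover counting error only.

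The lowest muscle-high value lay above the highest muscle-low value for 8 members, as for 24.1% of the genes tested. Muscle-low spots held more RNA and more urothelium: their median UMI counts were 37117 to 55273, against 11170 to 15183 in muscle-high spots, and urothelial markers were lower in muscle-high spots, 9 of 9. A spot covers a small region that can hold several cell types, and fibroblast markers moved too, 7 of 11 higher and 2 lower. The members' calls were unchanged under another scaling, DESeq2, no filter, 10% or 50% in place of 25% of spots, spots of at least 1000 UMIs, and with any section left out. The limit given above on the call of Ryr2 remains. The sizes moved more. Over these 11 alternatives the log2 difference ran from 3.41 to 5.69 for Kcnf1, 3.03 to 5.25 for Kcnmb1 and 2.56 to 4.93 for Ryr2. For Kcnma1 it ran from 2.00 to 2.75.

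**Figure D2:**
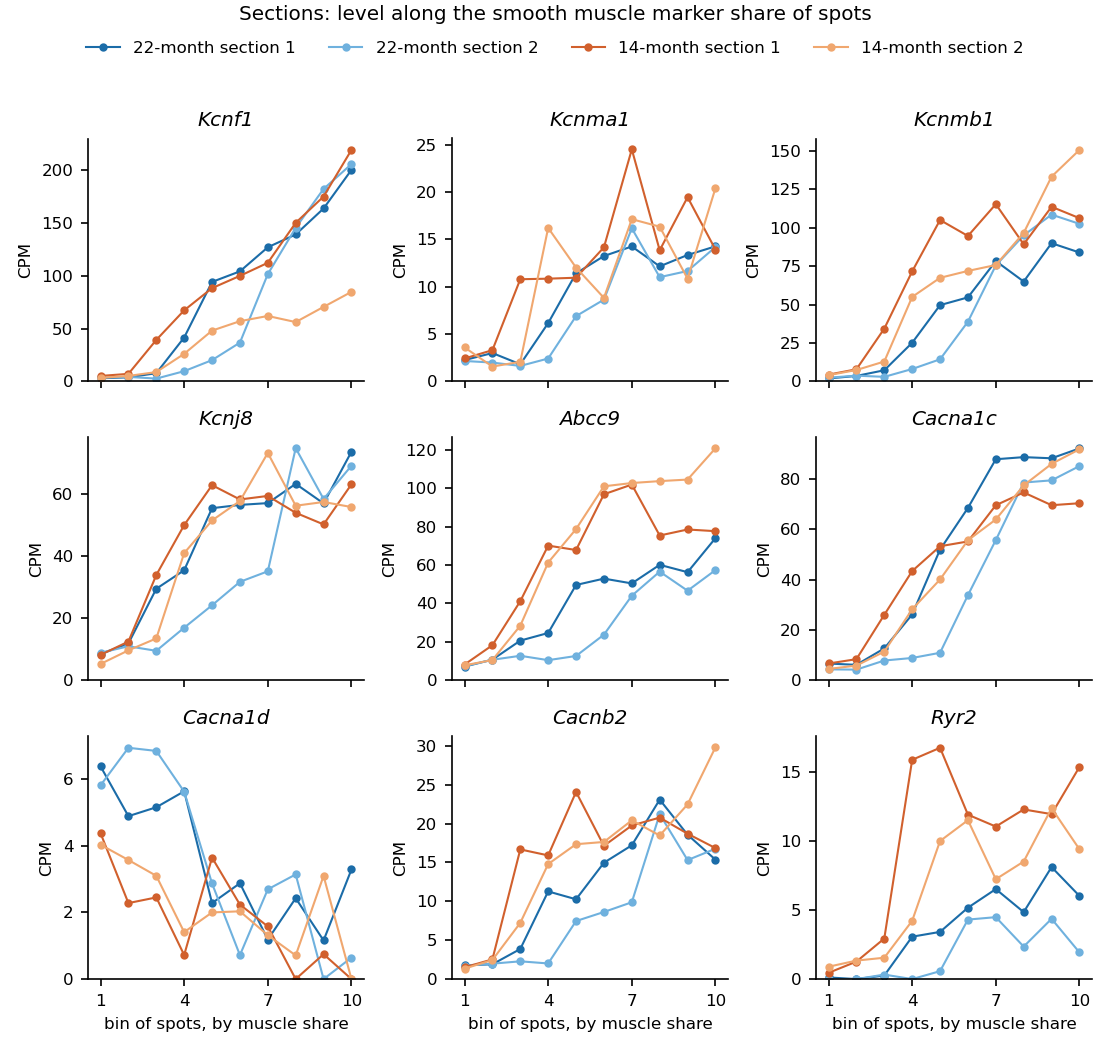
Level of each channel gene (CPM, vertical axis from 0) over 10 bins of equal numbers of spots in each of 4 sections, ranked by their share of smooth muscle marker UMIs from lowest (bin 1) to highest (bin 10). In the 22-month section 1, Kcnf1 stands at 2.96 CPM in bin 1, 41.5 in bin 4, 127 in bin 7 and 200.1 in bin 10, and Cacna1d, with few UMIs, lies lower in the upper bins.

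The other channel genes of the lists rose more often than they fell in muscle-high spots. Over all 13920 genes tested, 33.2% were called higher and 37.5% lower. Of the other potassium channel genes 27 were tested, of which 16 rose and 9 fell. Of the other voltage-gated calcium channel genes 9 were tested, of which 6 rose and 1 fell, and of the calcium store genes 20 were tested, of which 13 rose and 2 fell. Kcng1 (log2 5.40), Kcnn2 (4.31), Kcnk3 (3.09), Cacna2d3 (4.70), Cacna1h (3.38), Casq2 (4.82), Jph2 (4.63) and Trdn (4.48) were all higher in muscle-high spots. Cacna1b fell (log2 -2.38). Kcnk5 (-0.78) and Itpr2 (-0.51), which rose on dissociation, were lower in muscle-high spots. Kcnj2 (-0.72), Stim2 (-0.17) and Fkbp1b (-0.22) also rose on dissociation and were not called in these spots. Kcnv2, Cacna1g and Cacna2d2 were not tested there.

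Spots ranked by 12 mural markers gave smaller differences. In the 25% of spots with the highest mural share (mural-high), against the 25% with the lowest (mural-low), 8 members were higher, where 14.1% of 13453 genes were called higher and 9.02% lower (23.1% in either direction). The log2 differences ran from 0.89 (Kcnma1) to 1.38 (Ryr2), with 1.20 for Kcnj8 (SE 0.20, edgeR adjusted p = 0.013), 1.12 for Abcc9 (SE 0.18, adjusted p = 0.012) and 1.29 for Kcnf1 (SE 0.19, adjusted p = 0.012). Ryr2 reached the limit of the filter on low counts in 1 of 4 mural-low and 4 of 4 mural-high sets of spots. It passed the filter through mural-high spots, so its call is no support beyond the levels. Cacna1d gave 0.059 (SE 0.23) and was not called. Kcnj8 was 27.2, 16.7, 24.6 and 14.8 CPM in mural-low and 47.4, 34.6, 48.9 and 58.9 CPM in mural-high spots. Smooth muscle markers moved with the mural ranking, with sums of 15280 to 20020 CPM in mural-high and 4348 to 9740 CPM in mural-low spots. Of the mural-high spots of a section, 33.7% to 39.0% were also muscle-high spots. Blood endothelial markers summed to 440 to 574 CPM in mural-high and 165 to 253 CPM in mural-low spots. Of the fibroblast markers 4 of 11 were higher, and of the urothelial markers 3 of 9 were lower. The part of muscle and of these other cell types in the differences was not tested. No gene was called, and so no member, without the 14-month section 1 or with 50% in place of 25% of spots.

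The 2 detrusor cell libraries held both a smooth-muscle-like and a mural-like class, and the nuclei held the smooth-muscle-like class alone of the pair. Smooth-muscle-like cells numbered 1368 of 3375 nuclei, 170 detrusor-only cells and 56 detrusor-enriched cells. They were rare in whole-bladder suspensions: 13 and 20 cells in the 12-month library 1 and the 24-month library, and none was named in the male libraries. Kcnf1 gave 1 UMI over all kept cells of the 5 whole-bladder libraries, and Ryr2 gave none, with upper 95% limits of at most 0.304 CPM in each library. In nuclei Kcnf1 stood at 50.3 CPM over all nuclei (95% interval 44.3 to 57.0) and Ryr2 at 29.4 CPM (24.8 to 34.6). The detrusor libraries lay between, with 3.73 and 0.742 CPM of Kcnf1 over all detrusor-only and detrusor-enriched cells. These groups are single libraries apart from the 12-month whole-bladder cells, so the differences have no replicate check, and the intervals are exact Poisson intervals of summed counts.

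Kcnf1 differed most among the members between smooth-muscle-like and mural-like cells as first named. In smooth-muscle-like cells it was 42.0 CPM (131 UMIs) in the detrusor-only and 61.2 CPM (19 UMIs) in the detrusor-enriched library. Mural-like cells of the same libraries gave 1.10 CPM (3 UMIs) and 0.546 CPM (1 UMI), ratios of 38.3 (95% counting interval 12.8 to 188) and 112 (17.8 to 4659). Blood endothelial-like cells of the detrusor-only library had no Kcnf1 UMI (upper 95% limit 1.20 CPM). The mural-like level there is thus not separated from that of a class without a Kcnf1 UMI. Schwann-like cells of that library held 9.08% of the muscle level of Kcnf1 (95% Poisson interval 2.95% to 21.2%). Their share of the muscle markers was 4.43%. In the detrusor-enriched library Schwann-like cells held 0% (upper limit 7.36%). Smooth-muscle-like nuclei held 123 CPM.

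The smooth-muscle-like and mural-like sums of the 2 detrusor libraries were compared with the library as a block, which leaves 1 residual degree of freedom among samples. These libraries differ in the tissue taken and in sex. Of the members 3 were higher in muscle, 3 were lower and 3 were not called, where 9.94% of 10570 genes were called higher and 13.8% lower (23.7% in either direction). Kcnf1 passed the filter on low counts through muscle alone and Cacna1d through mural-like cells alone, so their calls describe these cells and are no support beyond the levels. Kcnma1 had a log2 difference of 1.31 (SE 0.23, edgeR adjusted p = 0.00023) and Kcnmb1 of 1.09 (SE 0.23, adjusted p = 0.0013). Dissociation-response genes were lower in smooth-muscle-like than in mural-like cells, 15 of 20, and their part was not tested. With doublets kept, smooth-muscle-like cells of the detrusor-enriched library had a median of 1627 UMIs, against 8553 in its mural-like cells. The detrusor-only library went the other way, with 14306 UMIs in smooth-muscle-like and 6745 in mural-like cells. The part of these depth gaps was not tested either.

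The ATP-sensitive channel genes were lower in muscle. Kcnj8 was 356 and 245 CPM in mural-like and 40.4 and 38.7 CPM in smooth-muscle-like cells of the detrusor-only and detrusor-enriched libraries, a 7.38-fold difference (log2 -2.88, SE 0.27, edgeR adjusted p = 1.8e-07). Abcc9 was 215 and 185 CPM in mural-like and 70.3 and 139 CPM in smooth-muscle-like cells, a 2.03-fold difference (log2 -1.02, SE 0.26, adjusted p = 0.0071). Both genes were lower in muscle in each library. The call of Abcc9 ended with DESeq2 (adjusted p = 0.14), with doublets kept (0.19), with cells of at least 1000 UMIs (0.066) and with finer clustering (0.061), and that of Kcnj8 held in each. Cacna1d was 14.6 and 6.55 CPM in mural-like and 3.53 and 3.22 CPM in smooth-muscle-like cells (log2 -1.77, SE 0.55, adjusted p = 0.023), on 11 and 1 UMIs in muscle. Its call ended with DESeq2 (adjusted p = 0.78), and it had too few counts for the test with finer clustering.

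Cacna1c, Cacnb2 and Ryr2 were not called in this test. Cacna1c was 52.6 and 96.7 CPM in smooth-muscle-like and 69.1 and 73.7 CPM in mural-like cells (log2 0.0063, SE 0.24, edgeR adjusted p = 0.99). Cacnb2 was 74.1 and 67.7 CPM in smooth-muscle-like and 67.3 and 59.5 CPM in mural-like cells (log2 0.26, adjusted p = 0.48). Ryr2 was 19.6 and 48.4 CPM in smooth-muscle-like and 16.8 and 22.9 CPM in mural-like cells (log2 0.64, adjusted p = 0.19).

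The mural-like class is itself mixed, and the channel genes differ within it. Clusters led by Rergl, a marker gene of arterial muscle (208 detrusor-only and 106 detrusor-enriched cells), held 97.8 and 97.0 CPM of Kcnma1, 80.1 and 102 CPM of Kcnmb1, and 26.3 and 33.7 CPM of Ryr2. They held little Kcnj8, 44.6 and 24.5 CPM, and no Kcnf1 UMI in the first and 1 in the second. The other mural-like clusters showed the opposite pattern. A detrusor-only cluster of 59 cells led by the pericyte genes Rgs5, Higd1b and Cox4i2 held 1884 CPM of Kcnj8 and 1015 CPM of Abcc9, a detrusor-only cluster of 109 cells held 519 and 355 CPM, and a detrusor-enriched cluster of 126 cells held 650 and 496 CPM. In these 3 clusters Kcnma1 was 0 to 3.56 CPM and Ryr2 was 0 to 3.10 CPM. Cacna1c was in all of them, 52.5, 81.9 and 72.9 CPM, as in the Rergl-led clusters, 73.8 and 74.2 CPM.

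**Figure D3:**
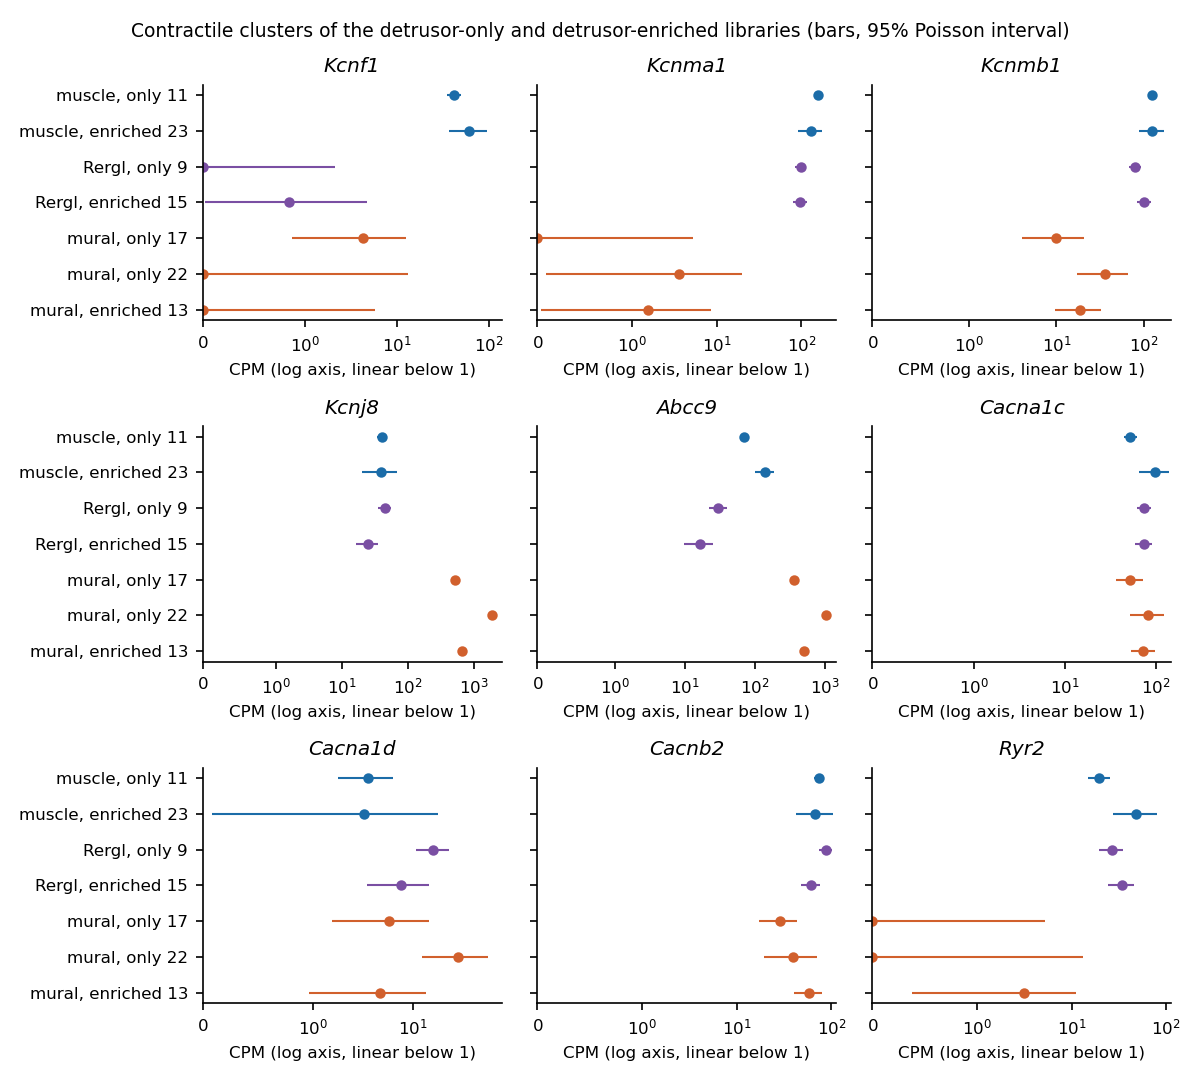
Level of each channel gene (CPM, log axis that is linear below 1, with 95% Poisson intervals) in the muscle clusters, the Rergl-led clusters and the other mural-like clusters of the detrusor-only and detrusor-enriched libraries, numbered as clustered. Kcnf1 is high in the muscle clusters, 42.0 and 61.2 CPM, Kcnma1 and Ryr2 are shared by muscle and Rergl-led clusters, and Kcnj8 and Abcc9 are highest in the other mural-like clusters.

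With the Rergl-led clusters left out of the mural-like class, a choice made after the clusters were seen, 5 members were called higher in muscle and 2 lower, where 13.4% of 8247 genes were called higher and 16.9% lower (30.3% in either direction). Of the 5, Kcnma1, Kcnf1 and Ryr2 passed the filter through muscle alone, so their calls are no support beyond the levels. Kcnma1 had 1 UMI in the remaining mural-like cells of each library, and muscle lay 156 times higher in the detrusor-only library (95% counting interval 27.8 to 6160) and 83.2 times higher in the detrusor-enriched library (14.1 to 3366). Kcnf1 had 3 UMIs in the first, a ratio of 13.8 (4.62 to 67.8), and none in the second, where muscle was at least 13.2-fold higher (against a floor of 3 counts in that class). Ryr2 had none in the first, where muscle was at least 6.43-fold higher, and 2 UMIs in the second, a ratio of 15.6 (3.63 to 140.5). The log2 difference was 2.94 for Kcnmb1 (edgeR adjusted p = 5.8e-09) and 0.97 for Cacnb2 (adjusted p = 0.015). Kcnj8 gave -4.22 and Abcc9 -2.35. Cacna1c stayed uncalled at 0.17 (adjusted p = 0.70), and Cacna1d had too few counts to be tested.

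Fibroblast-like cells, the most numerous stromal class, were compared with smooth-muscle-like cells in 4 libraries with the library as a block. Of the members 8 were tested and 6 were higher in muscle, where 5.42% of 10773 genes were called higher and 7.13% lower (12.5% in either direction). The log2 difference was 6.12 for Kcnf1 (SE 0.90, edgeR adjusted p = 0.012), 5.17 for Kcnma1 (SE 0.65, adjusted p = 0.0077), 5.96 for Kcnmb1 (SE 1.08, adjusted p = 0.016), 3.70 for Cacna1c (SE 0.67, adjusted p = 0.016) and 2.84 for Cacnb2 (SE 0.58, adjusted p = 0.023). Kcnf1, Kcnma1, Kcnmb1 and Cacna1c reached the limit of the filter on low counts in 1 of 4 fibroblast-like and 3 of 4 smooth-muscle-like sums. They passed the filter through muscle, so their calls are no support beyond the levels. Ryr2 was also called, and passed the filter through muscle alone, with the same limit on its call. It had no UMI in fibroblast-like nuclei, where muscle was at least 11.2-fold higher (against a floor of 3 counts in that class), 8 UMIs in the detrusor-only library, a ratio of 67.6 (95% counting interval 32.2 to 163.5), and 1 UMI in the detrusor-enriched library (191.5 to 52390). Kcnj8 (2.98, adjusted p = 0.064) and Abcc9 (1.29, adjusted p = 0.26) were not called. These values include the 12-month whole-bladder library 2, whose smooth-muscle-like cluster holds urothelial rather than muscle markers. Without that library 3040 genes of 11600 were called in place of 1352 (26.2%; 11.9% higher and 14.3% lower), and Kcnj8 was called as well (log2 3.34, edgeR adjusted p = 0.012), making 7 members. Besides Ryr2 the others then gave 6.33 (Kcnf1), 5.36 (Kcnma1), 6.52 (Kcnmb1), 4.00 (Cacna1c) and 3.16 (Cacnb2), with edgeR adjusted p from 2.4e-07 to 0.011. In this setting Kcnj8, Kcnf1, Kcnma1 and Kcnmb1 reached the low-count limit in 1 of 3 fibroblast-like and 3 of 3 smooth-muscle-like sums. They too passed the filter through muscle, so their calls are no support beyond the levels. Cacna1d was tested in this setting and was not called. Only 3 members were called without the nuclei, and only Ryr2 without the detrusor-only or without the detrusor-enriched library.

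Abcc9 RNA was also present in fibroblast-like cells. It was 59.7 CPM in fibroblast-like detrusor-only cells (3187 cells, 1649 UMIs), which is 85.0% (95% counting interval 73.8 to 98.3) of the smooth-muscle-like level. In the detrusor-enriched library it was 17.1 CPM, or 12.3% of the smooth-muscle-like level, and in nuclei 48.5 CPM, or 56.6% (34.1 to 89.7). The summed smooth muscle markers in the same fibroblast-like cells were 1.72%, 1.43% and 22.4% of their level in muscle, and the share of Abcc9 lay above that of the markers in each of the 3 libraries. Cacna1d in fibroblast-like cells was 615% of its smooth-muscle-like level in nuclei (95% counting interval 195 to 2098), 110% in the detrusor-only library (58.95 to 226.5) and 207% in the detrusor-enriched library (36.7 to 8235). These shares rest on 6, 11 and 1 UMIs in muscle, and the intervals of both detrusor libraries include equal levels in the 2 classes. Kcnj8 was 79.7% in nuclei (29.9 to 181.5) but 7.70% in the detrusor-only (5.79 to 10.2) and 5.83% in the detrusor-enriched library (3.10 to 11.9). Cacnb2 was 19.4% (11.6 to 30.7), 5.67% (4.49 to 7.11) and 20.6% (13.3 to 33.7) in the same order. Kcnf1 in fibroblast-like cells was 1.12% of its muscle level in the detrusor-only library and 11.2% in nuclei, no higher than the muscle markers.

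Other classes held particular members. Lymphatic endothelial-like cells had 95.4 CPM of Kcnj8 in nuclei (95% interval 31.0 to 223), 99.8 CPM in the detrusor-only (80.8 to 122) and 54.4 CPM in the detrusor-enriched library (38.9 to 74.1), with 0, 8.31 and 6.80 CPM of Abcc9. In the 43 nuclei of that class the upper 95% limit for Abcc9 was 70.4 CPM, so Kcnj8 and Abcc9 are not separated there. Blood endothelial-like cells had 25.4 CPM of Kcnj8 and 22.2 CPM of Abcc9 in the detrusor-only library and 53.9 and 49.0 CPM in the detrusor-enriched library, but these UMIs sat in few cells, 3.88% and 7.27% for Kcnj8. Macrophage-like cells had 11.5 CPM of Cacna1d in the detrusor-only library (7.91 to 16.1) and 17.5 CPM in the detrusor-enriched library (11.6 to 25.3), where smooth-muscle-like cells had 3.53 and 3.22 CPM. Urothelial-like nuclei had 11.8 CPM of Cacna1d (7.87 to 17.1), against 3.38 CPM in smooth-muscle-like nuclei (1.24 to 7.36). In the detrusor-enriched library urothelial-like cells had 2.08 CPM (1.35 to 3.07), below the 3.22 CPM of smooth-muscle-like cells, which rests on 1 UMI (0.082 to 17.96).

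**Figure D4:**
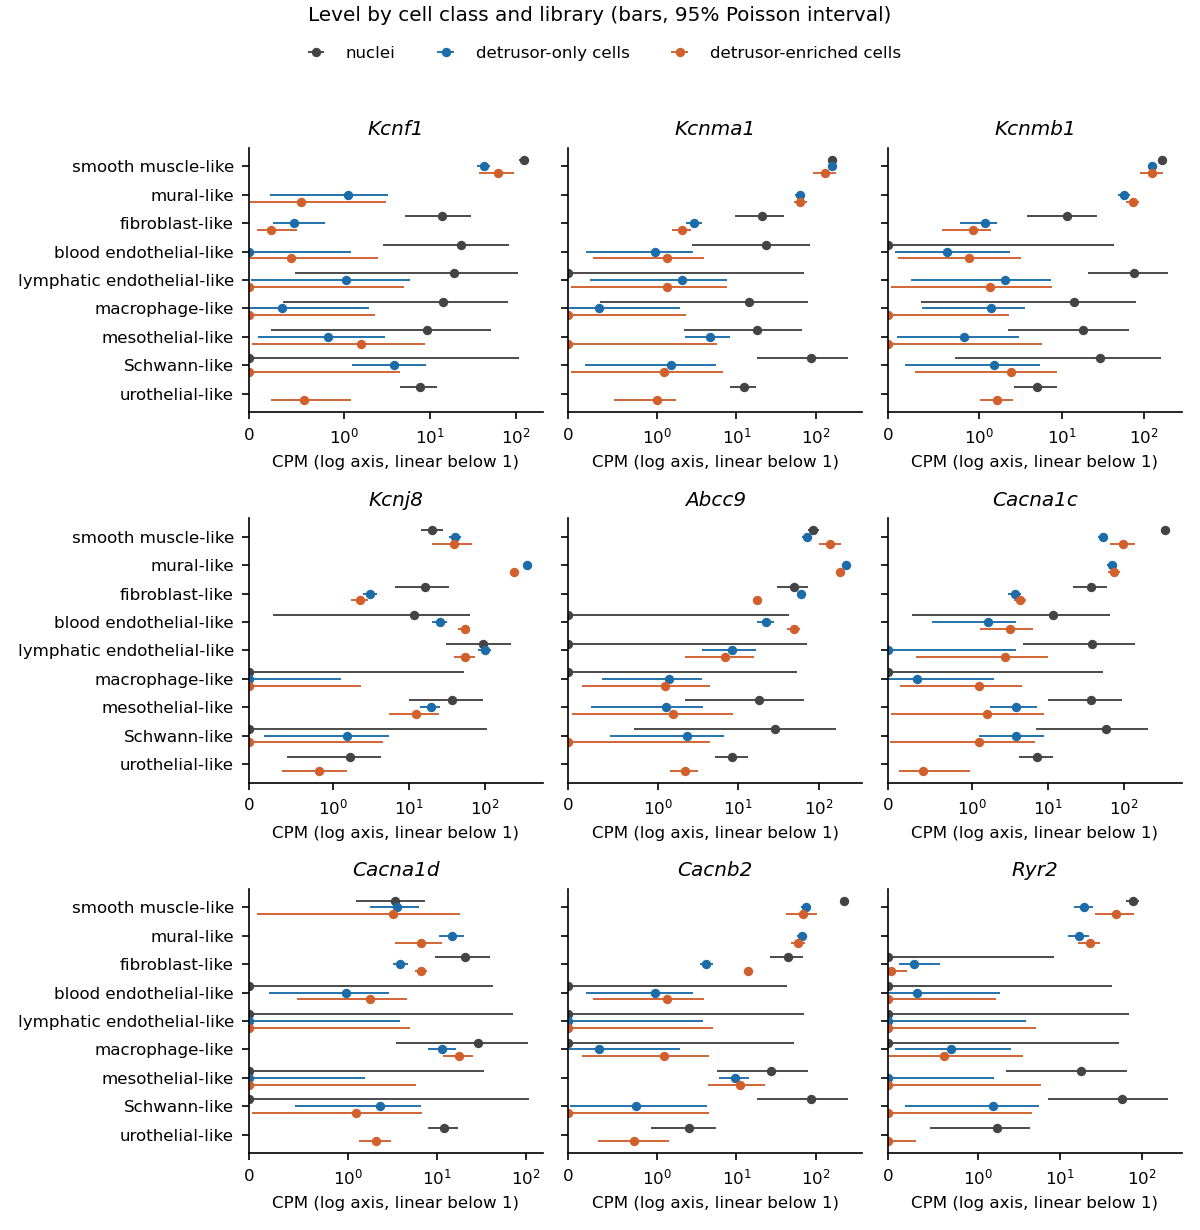
Level of each channel gene (CPM, log axis that is linear below 1) by cell class in the nuclei, detrusor-only and detrusor-enriched libraries; bars are 95% Poisson intervals of summed UMIs, which cover counting error only. Among the named classes Kcnf1 peaks in smooth-muscle-like cells of all 3 libraries, Kcnj8 in mural-like cells of both detrusor libraries, and the nuclei have no mural-like class.

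Nuclei and cells gave different levels of the same genes in muscle. Smooth-muscle-like nuclei held 350 CPM of Cacna1c, 226 CPM of Cacnb2 and 77.2 CPM of Ryr2. Smooth-muscle-like detrusor-only cells held 52.6, 74.1 and 19.6 CPM, and detrusor-enriched cells held 96.7, 67.7 and 48.4 CPM. Kcnma1 was 160 CPM in nuclei, 158 CPM in detrusor-only and 129 CPM in detrusor-enriched cells, and Kcnmb1 was 165, 125 and 126 CPM. Each is a single library, and preparation and age cannot be told apart between nuclei (12 months) and detrusor cells (14 months). The nuclei and the detrusor-enriched cells have the same sex mix, and the detrusor-only cells came from the muscular wall of females. Among the 4 clusters of smooth-muscle-like nuclei Cacna1c ranged from 182 CPM (51 nuclei) to 423 CPM (472 nuclei), Cacnb2 from 72.9 to 301 CPM and Kcnf1 from 67.4 to 189 CPM. The cluster of 437 nuclei with the most Kcnf1 had a Cacna1c level of 195 CPM, and the cluster of 408 nuclei with the least Kcnf1 had 402 CPM.

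Likeness of pattern was measured by Pearson's r of log2(CPM + 1) over 30 class profiles of the nuclei and detrusor libraries, among 9758 genes. The profiles share libraries and depth, so r describes these profiles and carries no p. The closest genes were Ooep (r = 0.93) and the cardiac troponin gene Tnnt2 (0.92) for Kcnf1, Atcayos (0.96) and Slc6a17 (0.90) for Kcnma1, and Slc2a4 and Casq2 (0.93 each) for Kcnmb1. For Ryr2 they were Slc6a17 (0.91) and Aoc3 (0.84), for Cacna1c Casq2 (0.89) and Dmpk (0.88), and for Cacnb2 Aoc3 and Cacna1c (0.84 each). The likeness was lower for Kcnj8, with Lmcd1 (0.78) and Bok (0.77), for Abcc9, with Prrx1 (0.83) and Angpt1 (0.80), and for Cacna1d, with Hk2 (0.73) and Slc37a2 (0.71). Between Kcnj8 and Abcc9, the subunits of the ATP-sensitive channel, r was 0.52, and between the BK subunits Kcnma1 and Kcnmb1 it was 0.79.

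Age was compared in the sections, 2 of 22 months against 2 of 14 months, over all spots. No member and no gene of 14974 was called by edgeR's quasi-likelihood test (0.0% called), although 2481 genes (16.6%) and 6 members had an unadjusted p under 0.05. DESeq2 called 420 genes, among them Kcnmb1, Abcc9 and Ryr2 as lower at 22 months. Abcc9 was 26.9 and 20.8 CPM at 22 months and 44.1 and 47.8 CPM at 14 months (log2 -0.88, SE 0.11, edgeR adjusted p = 0.079). Kcnmb1 was 26.5 and 28.5 CPM at 22 months and 48.2 and 42.8 CPM at 14 months (log2 -0.66, SE 0.11, adjusted p = 0.11). Ryr2 was 2.09 and 1.10 CPM at 22 months and 6.46 and 4.52 CPM at 14 months (log2 -1.70, SE 0.36, adjusted p = 0.14).

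Cacna1d had the opposite sign, with 4.50 and 4.59 CPM at 22 months and 2.50 and 2.78 CPM at 14 months (log2 0.84, SE 0.22, adjusted p = 0.18). Kcnf1 was 49.97 and 44.9 CPM at 22 months and 61.9 and 27.3 CPM at 14 months, so the ages overlapped (log2 0.14, SE 0.49, adjusted p = 0.91). Kcnj8 (30.2 and 24.8 against 32.0 and 28.7 CPM) and Cacna1c (32.0 and 24.3 against 32.4 and 30.2 CPM) overlapped as well. The ages did not overlap for 6 of 9 members, as for 50.8% of all genes tested. Smooth muscle markers summed to 10300 and 12130 CPM at 22 months and to 11800 and 7991 CPM at 14 months (median log2 difference -0.0041). Dissociation-response genes summed to 1268 and 956 CPM at 22 months and to 4895 and 2481 CPM at 14 months (median -1.79). Urothelial markers summed to 12460 and 13150 CPM at 22 months and to 11410 and 10560 CPM at 14 months (median 0.54). No gene of these lists was called, and their part in the member values was not tested.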

How the data were processed

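The deposited tables hold counts: UMI counts per gene for droplet libraries and sections, and read counts per gene symbol for bulk RNA, read from their whole-number values. Per the submitters' processing notes, bcl2fastq, Cell Ranger, Space Ranger, Subread and featureCounts and the mm10 build were used by the authors; versions and settings are not given in the sources used here.

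Barcodes under 500 UMIs, and cells or nuclei over 20% mitochondrial counts, were left out. Simulated-doublet scores removed 8 to 660 barcodes per library. Each library was clustered (Leiden, resolution 1, 30 components of 2000 variable genes, 15 neighbours) without the members and the other channel and calcium store genes, and clusters were named from markers of 19 classes. The 2 male whole-bladder tables hold no mitochondrial counts, so that limit removed no cell there.

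Counts summed per library, per set of spots or per class (at least 30 cells) were tested with edgeR 4.0.16 in R 4.3.3 (quasi-likelihood, robust, TMM, filterByExpr, two-sided, Benjamini-Hochberg over all genes tested, threshold 0.05). DESeq2 1.42.0 was the alternative. The procedure was run on simulated counts with the same dispersion for all genes and no section or library effects. Changed genes there were not of low count, so the run does not check blocks or values near the floor. SE is |log2 fold change| over the root of F. Fold changes and differences are log2 values on this scale, and CPM are counts scaled to the library total. Class levels carry exact 95% Poisson intervals, shares of cells exact binomial intervals; a floor is 3 counts.

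The members are always named. From each other list up to 3 genes with the largest called rise and fall in bulk RNA without overlap were named, and for each member the 2 most alike genes with a mean of at least 10 CPM. Members and lists were chosen with earlier results of these data known. Places and sequences are from RefSeq (GRCm38.p6). Spots carried no positions in the tables used here, and protein sequences were not used here.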

Additional observations from a re-analysis of the deposited data

Results flagged for a closer look

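Over the 4 sections, 4 of 61 checks found a section whose gap to the nearest other section exceeded Dixon's 95% limit for 4 samples. Chance flags about 1 group in 20.

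Kcnf1 in muscle-high spots was 73.3 CPM in the 14-month section 2 and 174.5 to 189 CPM in the other 3 sections. Smooth muscle markers in the same spots summed to 24450 CPM there and to 33470 to 47640 CPM in the others, and the part of this difference in the low Kcnf1 value was not tested. Abcc9 had its largest muscle-high to muscle-low difference in that same section, a log2 ratio of 3.47, against 2.47 to 2.62 in the others.

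In muscle-low spots Kcnf1 was 8.55 CPM in the 14-month section 1 and 3.64 to 4.30 CPM in the others, where smooth muscle markers summed to 1842 CPM and to 790.5 to 1138 CPM. Ryr2 in mural-low spots was 4.38 CPM in the 14-month section 1, on 26 UMIs, and 1.49 to 1.64 CPM in the others.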

How the results depend on the processing

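Depth limits several values: Cacna1d rests on 1 to 11 UMIs in smooth-muscle-like cells of the detrusor libraries, and the lowest levels in sections on 0 to 2 UMIs. All 99 values of the 9 members in bulk RNA under 11 alternatives kept direction and call, as did all 99 in muscle-high against muscle-low spots. Scaling by library size alone moved the median of all genes by -0.11 in bulk RNA and by -0.16 in muscle-high spots. Of the 79 values for smooth-muscle-like against mural-like cells 66 kept both, of the 96 against fibroblast-like cells 78, of the 98 for mural-high spots 73, and of the 81 for age 68. Class levels moved beyond their counting interval in 16 of 45 with Leiden resolution 2, 8 of 45 with at least 1000 UMIs and 10 of 45 with doublets kept. The causes were not tested.

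Intact and dissociated libraries of the same number did not deviate together throughout (r = 0.30, 0.39 and -0.056), so the numbers were not taken to pair them; with the number as a replicate block 10118 genes were called and the members' calls were the same. In bulk RNA the other voltage-gated calcium channel genes that rose, Cacna1g and Cacna2d2, were 1 (Cacna1g) with library size alone and with no filter, and 1 to 2 with a library left out.

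For age, 66 genes were called with library size alone, 420 with DESeq2 and 286 with no filter, with 2, 3 and 3 members lower, and 1 to 256 genes and 0 to 1 members lower with a section left out, the lone section then being assumed to vary like the others. Kcnj8 ranged from -0.19 to 0.030 over these, Kcnf1 from -0.35 to 0.89 and Cacna1c from -0.26 to 0.056.

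For mural-high spots 0 genes and 0 members were called with 50% of spots on each side, and 0 to 2925 genes and 0 to 7 members with a section left out (0 without the 14-month section 1 and 1915 genes without the 22-month section 1); Cacna1d was -0.066 with 50% and -0.0063 to 0.12 with a section left out. For smooth-muscle-like against mural-like cells, 1034 genes were called with DESeq2, 429 with resolution 2 (which also added the 22-month male library and left 26360 genes in common), 1255 with doublets kept and 1423 with at least 1000 UMIs. Cacna1c there was -0.10 with library size alone and -0.033 with no filter. Members lower were 1 (Kcnj8) with DESeq2 and with resolution 2, and members higher were 5 without the Rergl-led clusters. No library could be left out of that test, since no residual degree of freedom would remain. Against fibroblast-like cells, 2036 genes were called with DESeq2, 2687 with resolution 2 (with the 22-month male library in place of the 12-month whole-bladder library 2) and 3120 with at least 50 cells of both classes, and 137 to 3040 genes with 1 to 7 members higher with a library left out (137 without the detrusor-enriched, 255 without the detrusor-only library, 629 without the nuclei and 3040 without the 12-month whole-bladder library 2).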

Other observations

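A cluster of 81 detrusor-only cells with a median of 1069 UMIs stayed unnamed, although muscle channel genes were present in it. It held 115 CPM of Kcnf1 (95% interval 59.4 to 201), 124.5 CPM of Kcnma1 (66.3 to 213), 240 CPM of Cacna1c (155.0 to 354) and 172 CPM of Cacnb2 (102 to 273). Its Kcnj8 and Abcc9 levels were 153 CPM (87.6 to 249) and 182 CPM (110 to 284). Its smooth muscle markers summed to 19060 CPM, against 33720 CPM in the named muscle cluster of the same library. The values of 5 members lie above those of that named cluster with intervals that do not overlap: 42.0 CPM of Kcnf1 there (35.1 to 49.9), 52.6 CPM of Cacna1c (44.9 to 61.3), 74.1 CPM of Cacnb2 (64.9 to 84.3), 40.4 CPM of Kcnj8 (33.7 to 48.1) and 70.3 CPM of Abcc9 (61.3 to 80.2). Kcnmb1 lay lower, 38.3 CPM (10.4 to 98.1) against 125 CPM.

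Mural-like cells of the male whole-bladder libraries entered a test only with Leiden resolution 2, which used those of the 22-month library. Its 116 cells held as much smooth muscle as mural marker RNA, 7492 CPM each, and resolution 2 named 72 of them smooth-muscle-like and 44 mural-like. Together they held 665 CPM of Kcnj8 (552 to 794), 181 CPM of Kcnmb1 (125 to 255) and 87.9 CPM of Abcc9 (50.2 to 143), and 1 UMI of Kcnma1. The 21 cells of the 3-month library held 1971 CPM of Kcnj8 (1426 to 2654) and no UMI of Kcnma1, Kcnmb1 or Cacna1c, with an upper 95% limit of 169 CPM for each.

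Kcnj8 also appeared in T or NK-like cells: 182 CPM (117 to 271) in the 3-month male library, on 24 UMIs in 5 of 140 cells, and 18.5, 14.0 and 19.9 CPM in the 22-month male, detrusor-only and detrusor-enriched libraries, on 6 UMIs each. The 30 T or NK-like cells of the 12-month whole-bladder library 1 and the 39 of the 24-month library held no Kcnj8 UMI, with upper 95% limits of 18.7 and 19.2 CPM.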
